A study of Homo sapiens with 4 samples.

Results

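The response to TGF-beta was examined in vector control cells of SCP2, a subline of human MDA-MB-231 breast cancer cells that colonises bone. The vector cells carry an empty construct and were profiled on 1 array without and 1 array with TGF-beta, labelled Vector and Vector_TGFb. A further pair of arrays, labelled DLC1 and DLC1_TGFb, holds cells of the same line that, per the labels, overexpress DLC1, a GTPase-activating protein, without and with the cytokine. The sources used here do not give the dose or the duration of the treatment, or say whether the vector cells are a pool or a clone. The genes examined are all those named by exactly 1 symbol in the array annotation, 19775 in all, of which 13134 were bright enough to be kept. Genes were kept where at least 1 of the 4 intensities reached 0.38, the median of all deposited values. Intensities are in arbitrary units on a linear scale, and each difference is the log2 intensity of Vector_TGFb minus that of Vector. With 1 array a side a difference has no replicate error and no p-value, and "rose" and "fell" stand only for a change of at least 2-fold between these 2 arrays.

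TGF-beta is released from latent complexes in the matrix and binds a pair of receptor serine kinases, TGFBR2 and TGFBR1. The active receptor phosphorylates SMAD2 and SMAD3, which join SMAD4, enter the nucleus and act with other factors at target genes. Induced inhibitors such as SMAD7 then damp the signal. Bone matrix is a large store of the cytokine, and in breast cancer cells that reach bone its targets are known to include matrix proteins, adhesion molecules and factors that act on bone cells.

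The arrays had the character of the named line. Vimentin (VIM), a filament protein of mesenchymal cells, read 178.39 in Vector and 205.05 in Vector_TGFb, and all 15 listed markers of claudin-low breast cancer lines were kept. For comparison, 13134 of all 19775 genes were kept. Of 16 luminal breast markers 15 were on the array and 10 were kept. The summed intensity of the 10 was 104.88 in Vector and 101.75 in Vector_TGFb. The luminal keratin KRT18 made up most of it, at 65.09 and 61.36, EPCAM read 7.45 and 5.76 and GATA3 4.59 and 3.14. The luminal markers CDH1 (E-cadherin), PGR, FOXA1, TFF1 and TFF3 lay below the filter. Of 18 leukocyte markers 15 were on the array and 11 were kept. The summed intensity of the 11 was 18.37 in Vector and 14.42 in Vector_TGFb. HLA-DRA read 9.4 and 6.4, CD14 1.67 and 1.16 and PTPRC 0.17 and 0.15. Of the endothelial markers 6 of 11 were kept, summing to 10.68 and 15.2. ROBO4 made up most of the sum, at 6.24 and 9.67, ESAM read 1.88 and 2.7, and CDH5 read 0.1 in both arrays. Of the fibroblast and stromal markers 6 of 13 were kept, summing to 3.32 and 12.36, most of the gain being COL1A1, while COL1A2 read 0.11 and 0.12. No marker was at 0. The gap between the 3' and the 5' probe sets of ACTB, a sign of RNA or labelling quality, was 3.26 on the log2 scale in Vector and 2.83 in Vector_TGFb, whereas that of GAPDH was 0.39 and 0.38, and the part of this change in the results was not tested. Here, as in any bulk sample, fewer cells of a type and less RNA per cell cannot be told apart.

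With TGF-beta 157 genes rose, 1.2% of the 13134 tested, and 90 fell, 0.685% of them, which makes 247 changed genes or 1.88%. These shares are the background for the counts of list members given below. Rises were also the larger changes. At least 4-fold higher were 30 genes and at least 8-fold higher 6, while 4 genes were at least 4-fold lower. The median log2 difference was 1.35 among the genes that rose and -1.24 among those that fell. Over all kept genes the median was -0.03, and 95% of the differences lay between -0.62 and 0.67. Genes past 2-fold in either direction made up 1.83%, 2.5%, 2.01% and 1.19% of 4 classes of equal size, from the dimmest to the brightest by mean level. For 16 of the 157 genes the untreated level was under the filter, and for 20 of the 90 the treated level was, so the size of those changes rests on a dim value. With dim values raised to the filter level, 145 genes rose and 75 fell.

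**Figure D1:**
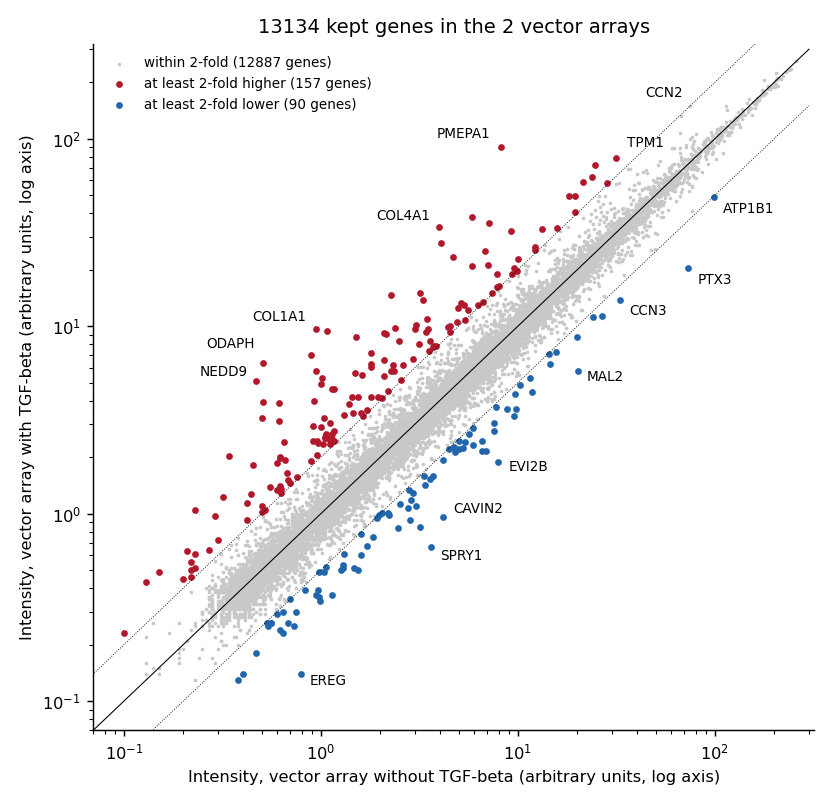
Intensity of each of the 13134 kept genes in the vector array without TGF-beta (horizontal, log axis) and with it (vertical, log axis). The solid line marks equal values and the dotted lines 2-fold; the 157 genes that rose lie, by their medians, farther from the solid line than the 90 that fell, and CCN2 lies just inside the upper dotted line.

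The largest rises joined the pathway's own inhibitor PMEPA1 to collagens and adhesion genes. PMEPA1, a membrane protein that binds SMAD2 and SMAD3, read 8.19 without and 89.76 with TGF-beta, a log2 difference of 3.45, and was by far the brightest of them. NEDD9, a scaffold of focal adhesions, went from 0.47 to 5.09, and COL1A1, the first chain of type I collagen, from 0.94 to 9.7. The cadherin CDH19 read 1.07 and 9.43, and the basement membrane chain COL4A1 3.98 and 33.66. NEDD9, COL1A1 and CDH19 were dim without TGF-beta. The largest difference of all, 3.65, belonged to ODAPH, a gene known from tooth enamel, which read 0.51 and 6.39.

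Other genes among the 20 with the largest rise have roles in adhesion and signalling. FERMT1 encodes kindlin-1, which binds integrin tails and helps to activate them, and went from 5.87 to 38.34. AKAP12, a scaffold for protein kinases, went from 4.09 to 27.81. The metalloprotease gene ADAM19 read 0.51 and 3.96, and the neural adhesion gene CNTN1 read 0.89 and 6.99. LBH, a transcription cofactor, went from 2.27 to 14.61, CDS1, an enzyme of phospholipid synthesis, from 0.5 to 3.24, and the long non-coding RNA LINC01943 from 0.61 to 3.88. HTN1, a salivary peptide gene, read 0.34 and 2.02, so its untreated value was under the filter.

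The 20 genes with the largest fall were led by SPRY1, an inhibitor of receptor tyrosine kinase signalling, which read 3.61 without and 0.66 with TGF-beta. CAVIN2, a coat protein of caveolae, went from 4.15 to 0.96. EVI2B, a membrane protein gene best known from blood cells, fell from 7.94 to 1.89, and its neighbour EVI2A from 9.74 to 3.61. THRB, a receptor for thyroid hormone, went from 3.18 to 0.85. The brightest gene among them was PTX3, a secreted pattern recognition protein, at 73.28 and 20.41, followed by MAL2, a membrane traffic protein of epithelial cells, at 20.19 and 5.79. The tetraspanin TSPAN8 fell from 6.86 to 2.15, the lysophosphatidic acid receptor LPAR1 from 9.57 to 3.3 and the complement-response gene RGCC from 6.6 to 2.15. EREG, a ligand of the EGF receptor, had the largest plain difference, -2.50, but read only 0.79 and 0.14.

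**Figure D2:**
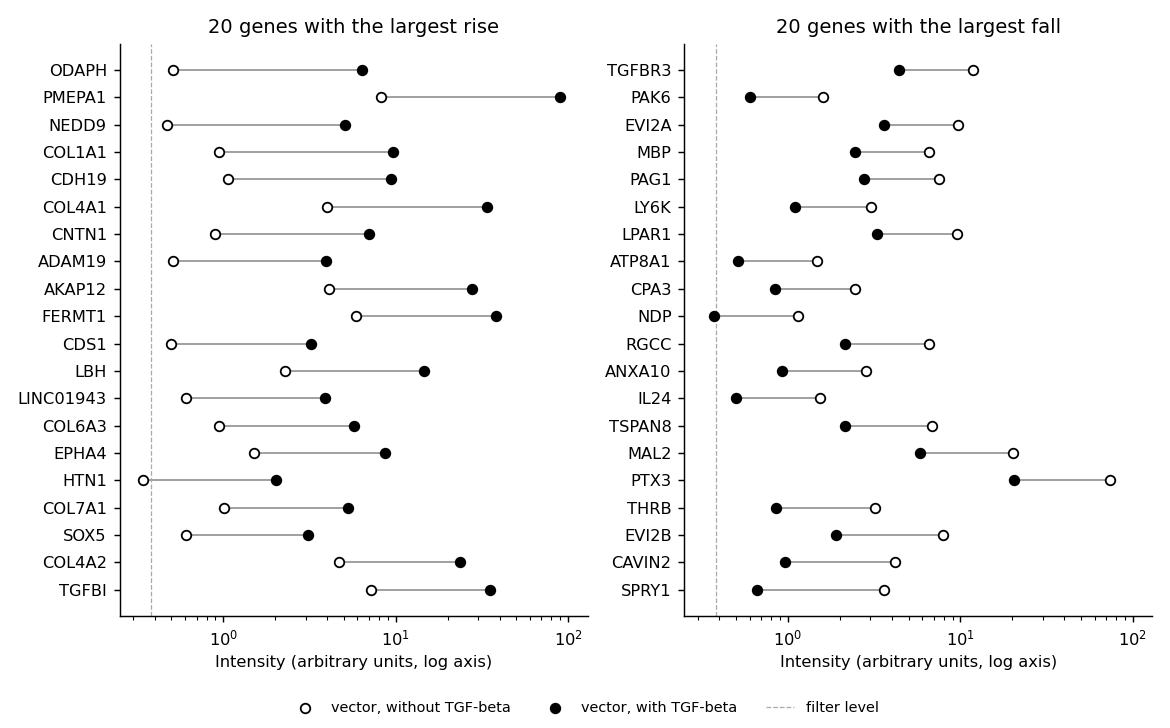
Intensity (log axis) without TGF-beta (open) and with it (filled) of the 20 kept genes with the largest rise and the 20 with the largest fall, ranked after values under the filter level (dashed line) were raised to it. PMEPA1 reached 89.76, the highest filled point on the left, and PTX3 started from 73.28, the highest open point on the right.

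Among the ligands of the family, 17 of 28 listed were kept, with 2 higher, 3 lower and a median log2 difference of 0.06. The shares were 11.8% and 17.6%, beside 1.2% and 0.685% of all kept genes. BMP2, a bone morphogenetic protein, rose from 1.44 to 4.19, and INHBA, the subunit of activin A, rose from 12.27 to 26.35. INHBB, the subunit of activin B, fell from 0.68 to 0.26, BMP4 from 10.29 to 4.86 and GDF15 from 1.59 to 0.78. Both the activin and the bone morphogenetic protein branches thus held a member in each direction. The treated value of INHBB was under the filter, and with dim values raised to it the difference was -0.84, within 2-fold. TGFB1 itself, looked up after its values were seen, read 0.68 and 1.19, a log2 difference of 0.81. Its other kept probe set read 0.43 and 0.42, a difference of -0.03.

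Genes that store or activate latent TGF-beta had 3 of 14 kept members higher and 1 lower, with a median of 0.38. The shares were 21.4% and 7.14%, beside 1.2% and 0.685% of all kept genes. PLAU, the urokinase that starts plasmin formation, went from 24.72 to 72.43. The integrin subunit ITGAV, part of receptors that pull the cytokine out of its complex, went from 19.46 to 40.46, and ITGB8, a partner of it, fell from 7.53 to 3.03. LTBP2 went from 1.64 to 3.3, a log2 difference of 1.01. THBS1, whose thrombospondin can release the cytokine, read 48.71 and 60.24 in its brightest probe set, which was used for the count. Its other 6 kept sets differed by between 1.07 and 1.75, the brightest of them reading 15.49 and 41.16, so most sets of THBS1 were past 2-fold.

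The receptors changed little except for the coreceptor. TGFBR3, which encodes betaglycan and presents the cytokine to the other receptors, fell from 11.81 to 4.43. It was the 1 member that passed 2-fold of the 13 kept receptor genes, whose median difference was 0.18. TGFBR2 read 41.72 and 48.31, and TGFBR1 read 25.91 and 21.38. BMPR2, a receptor for bone morphogenetic proteins, came closest on the upper side, at 5.75 and 11.17. None of the 13 kept SMADs and SMAD partners passed 2-fold. SMAD3 had the largest difference, -0.84, with 7.33 and 4.1, while SMAD2 read 15.9 and 16.26 and SMAD4 5.73 and 6.67.

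Of the 16 kept feedback inhibitors 4 rose and none fell, and 14 had a difference above 0, beside 43.3% of all kept genes. After PMEPA1 came SMAD7, which blocks the active receptor, at 1.0 and 4.92. FSTL3, which binds activins, went from 0.62 to 2.0, and SKIL, a corepressor that binds SMADs, from 3.45 to 10.87. The ubiquitin ligase genes SMURF1, at 3.25 and 4.95, and SMURF2, at 52.61 and 76.18, stayed under 2-fold. The antagonists of bone morphogenetic proteins and activins did not share a direction, as NOG read 14.59 and 19.64 and FST 44.6 and 30.47. BAMBI, a pseudoreceptor, read 4.22 and 4.96 and SMAD6, the inhibitor of the bone morphogenetic protein branch, 1.41 and 1.69.

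Genes that TGF-beta is known to repress in many epithelial cells did not move by 2-fold. ID1 read 2.28 and 2.63, ID2 0.65 and 0.73 and ID4 2.5 and 2.54. MYC read 30.76 and 27.61. All 4 kept members of this list lay between -0.16 and 0.21 on the log2 scale.

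Of 35 genes listed as induced by TGF-beta in other cells 29 were kept, and 14 of them rose, 48.3%, against 1.2% of all kept genes. None fell, and the median difference was 1.0. Besides the collagens, NEDD9 and ADAM19 they include TGFBI, an adhesive matrix protein, which went from 7.15 to 35.43. BHLHE40, a repressor of the circadian clock, went from 5.85 to 21.03 and FN1, the fibronectin gene, from 23.9 to 62.15. ANGPTL4, a secreted inhibitor of lipoprotein lipase, read 1.05 and 2.57, JUNB, a subunit of AP-1, 1.14 and 2.66, and the interleukin gene IL11 4.5 and 9.28, with 0.9 and 1.31 in its other kept probe set. CCN2, a matricellular protein, was among the brightest genes, at 74.59 and 148.72. Its ratio was 1.99, just under the size rule, so it is not counted.

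**Figure D3:**
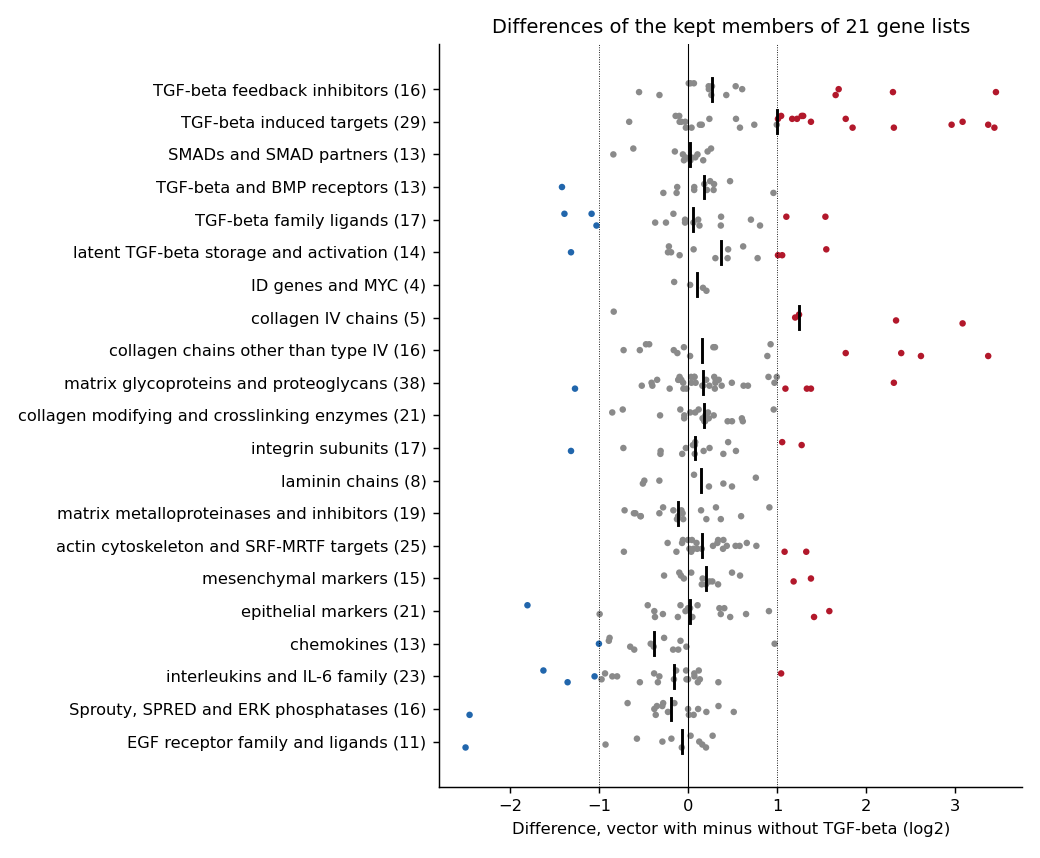
Log2 difference with TGF-beta of every kept member of 21 gene lists (points; number of kept members in parentheses), coloured where it passed 2-fold (dotted lines), with the list's median as a bar. The induced targets have their median at 1.0 and the collagen IV chains at 1.25 (0.75 with dim values raised to the filter level), while the other lists shown have medians between -0.39 and 0.38.

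Collagen chains were among the matrix genes that rose. Among the collagen IV chains, which form the network of basement membranes, 4 of the 5 kept genes rose. COL4A2 went from 4.66 to 23.49. COL4A3, at 0.1 and 0.23, and COL4A4, at 0.27 and 0.64, were dim in both arrays, and raising dim values to the filter level left neither past 2-fold. COL4A3 was kept through the arrays labelled DLC1 alone. The median of the 5 chains, 1.25, became 0.75 with dim values so raised. COL4A5 read 0.82 and 0.46. Of 16 other collagen chains 4 rose and none fell, with a median of 0.15. COL6A3, of beaded filaments, went from 0.94 to 5.75, COL7A1, of anchoring fibrils, from 1.01 to 5.3, and COL5A1, which nucleates fibrils, from 1.62 to 5.52. COL1A2, the partner chain of COL1A1, was below the filter. COL1A1 itself depends on the probe set, as its other 3 kept sets differed by 1.75, 0.08 and -0.11.

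None of the 21 kept enzymes that modify or crosslink collagen passed 2-fold. The largest differences were those of P4HA2, a prolyl hydroxylase, at 5.78 and 11.25, and of P3H2, at 3.3 and 1.83. LOXL4, a lysyl oxidase, read 4.57 and 2.75. Of 38 matrix glycoproteins and proteoglycans 4 rose and 1 fell, or 10.5% and 2.63%, beside 1.2% and 0.685% of all kept genes. They include MFAP2, of microfibrils, at 1.06 and 2.67, and SRPX, at 9.53 and 20.32. CCN3, a relative of CCN2, went the other way, from 33.15 to 13.76. None of the 8 kept laminin chains passed 2-fold, LAMB1 being nearest at 4.51 and 7.64.

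Proteases and adhesion receptors showed few changes beyond those already named. None of the 19 kept matrix metalloproteinases and inhibitors passed 2-fold, and their median was -0.11. MMP1, the collagenase known from bone-seeking sublines of this line, was one of the brightest genes in both arrays, at 243.54 and 234.54. Of 17 integrin subunits 2 rose and 1 fell. ITGA5, the fibronectin receptor subunit, read 1.05 and 2.54. Of the 22 focal adhesion components only NEDD9 and FERMT1 passed 2-fold, and TLN2, a talin, read 0.85 and 1.64. ADAM19 was the 1 of 20 ADAM and ADAMTS proteases past 2-fold, and ADAMTS6 read 3.79 and 7.29. PLAU was the 1 of 5 genes of plasminogen activation, its receptor PLAUR reading 14.47 and 20.25. CDH19 was the 1 of 8 cadherins and catenins, and CDH11 read 17.25 and 20.37.

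Few epithelial and mesenchymal markers passed 2-fold. Of 21 kept epithelial markers 2 rose and 1 fell, with a median of 0.02. The keratin KRT7 went from 2.32 to 6.18, with 0.59 and 0.68 in its other kept probe set, and KRT14, at 0.21 and 0.63, was dim. The gene that fell was MAL2. Of 15 mesenchymal markers FN1 and FAP rose, FAP at only 0.22 and 0.5, and the median was 0.20, with 11 of the 15 above 0. Of 5 kept transcription factors of the epithelial-mesenchymal transition TCF4 rose, from 4.95 to 12.43, and its other 6 kept probe sets differed by between 1.11 and 1.53. SNAI2 read 21.85 and 31.72 and ZEB1 19.92 and 19.49. The other kept probe sets of ZEB1 were dimmer and differed by 0.34 and 0.29.

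Actin genes and targets of SRF and its MRTF cofactors had 2 of 25 kept members higher and a median of 0.15. TPM1, a tropomyosin of stress fibres, went from 31.61 to 79.25, and CALD1, a caldesmon, from 15.78 to 33.43. TAGLN2 read 24.61 and 41.86. The targets of YAP and TAZ had no member past 2-fold among 20, with a median of -0.09. CCN2, which is on this list too, came nearest, at 74.59 and 148.72, just under 2-fold. Of 9 caveolins and cavins CAVIN2 alone passed, and CAV1 read 76.9 and 55.32 and CAV2 36.27 and 29.18.

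Growth factor pathways had single members that fell. EREG and SPRY1 were each the 1 gene past 2-fold on their list, out of 11 genes of the EGF receptor family and 16 Sprouty, SPRED and ERK phosphatase genes. The treated value of EREG was under the filter, and with dim values raised to it the difference of EREG was -1.06. DUSP5, an ERK phosphatase, read 14.66 and 9.16. JUNB was the 1 of 14 AP-1 and early growth response factors to pass, while its relatives FOSL1, at 10.11 and 5.5, and FOSL2, at 7.01 and 4.19, stayed within 2-fold. Among 24 ligands and receptors of the PDGF, FGF, VEGF and angiopoietin families 3 rose and 1 fell. NRP2, a coreceptor for semaphorins and VEGF, went from 1.8 to 6.27, PDGFB from 0.42 to 0.92, and ANGPT1 fell from 0.83 to 0.39. PDGFB and ANGPT1 were dim, and adding 0.25 before log2 ended both calls. The other kept probe set of PDGFB read 0.49 and 0.69, within 2-fold. The Wnt ligand WNT5B went from 3.14 to 8.04, the 1 gene of 16 on the Wnt list past 2-fold, and WNT5A read 2.79 and 4.74. None of 9 genes of the IGF axis passed, with a median of 0.35. Its binding protein IGFBP1 read 47.36 and 25.63, IGFBP3 27.1 and 44.87 and the receptor IGF1R 4.42 and 7.12. None of 17 Notch genes passed either, with a median of 0.01, and LFNG, a modifier of Notch, read 0.52 and 0.91.

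Guidance genes of axons, many of which act in cell migration, had 3 of 46 kept members higher and 1 lower. The shares were 6.52% and 2.17%, beside 1.2% and 0.685% of all kept genes. EPHA4, a receptor for ephrins, went from 1.5 to 8.7, and its other 3 kept probe sets differed by between 1.66 and 2.30. PLXNA2, a semaphorin receptor, read 1.11 and 2.35. SEMA3A, a secreted semaphorin, fell from 2.94 to 1.29. The list's median was 0.02, so the 4 genes that passed, CNTN1 included, stand among many that hardly differed.

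Most genes of the chemokine list had a difference below 0. Of 13 kept chemokine genes 12 had a difference below 0, beside 54.8% of all kept genes, and their median was -0.39. CCL20 was the 1 that fell by 2-fold, from 1.96 to 0.98, and CXCL8, a neutrophil attractant, read 76.22 and 41.16. The chemokine receptor CXCR4 stood on the other side, at 10.87 and 21.31, just under 2-fold in its brightest probe set, which was used for the count. Its other kept sets differed by 1.06 and 1.11, past 2-fold. Of 23 kept interleukins, related cytokines and receptors 1 rose and 3 fell. A difference below 0 was seen in 15, or 65.2%, beside the 54.8% of all kept genes. IL24 went from 1.54 to 0.5, CSF1, the growth factor of macrophages and osteoclasts, from 5.92 to 2.32, and the receptor antagonist IL1RN from 0.6 to 0.29. The 2 other kept probe sets of CSF1 differed by -0.60 and -0.18.

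Genes with known effects on bone cells went both ways, with 4 of 19 kept members higher and 4 lower. That is 21.1% each way, beside 1.2% and 0.685% of all kept genes. IL11, which promotes osteoclast formation, and TNFRSF11B, the decoy receptor osteoprotegerin, which restrains it, both rose. TNFRSF11B read 3.55 and 7.38, and its other probe set 3.69 and 5.31. EDN1, endothelin-1, a stimulator of osteoblasts, rose from 9.23 to 31.99, as did BMP2. CSF1, EREG, BMP4 and GDF15 were the 4 that fell. JAG1, a Notch ligand, read 60.54 and 88.71. The osteoclast ligand gene TNFSF11 read 0.11 in both arrays, below the filter.

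Cell cycle genes were slightly lower as groups, with no member of either list past 2-fold. All 35 mitotic genes had a difference below 0, from -0.62 to -0.15, and their median was -0.36. Of 37 genes of DNA replication 34 lay below 0, with a median of -0.24. For comparison, 54.8% of all kept genes lay below 0 and the 15 housekeeping genes had a median of 0.03. SPC25, of the kinetochore, read 5.95 and 3.87, KIF20A, a mitotic kinesin, 17.58 and 12.23, and PRIM1, a DNA primase subunit, 9.21 and 6.4. CDKN1A, the CDK inhibitor p21, rose from 4.41 to 9.91, the 1 of 16 G1 cyclins and inhibitors past 2-fold. CCNE2, cyclin E2, read 12.22 and 8.79.

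**Figure D4:**
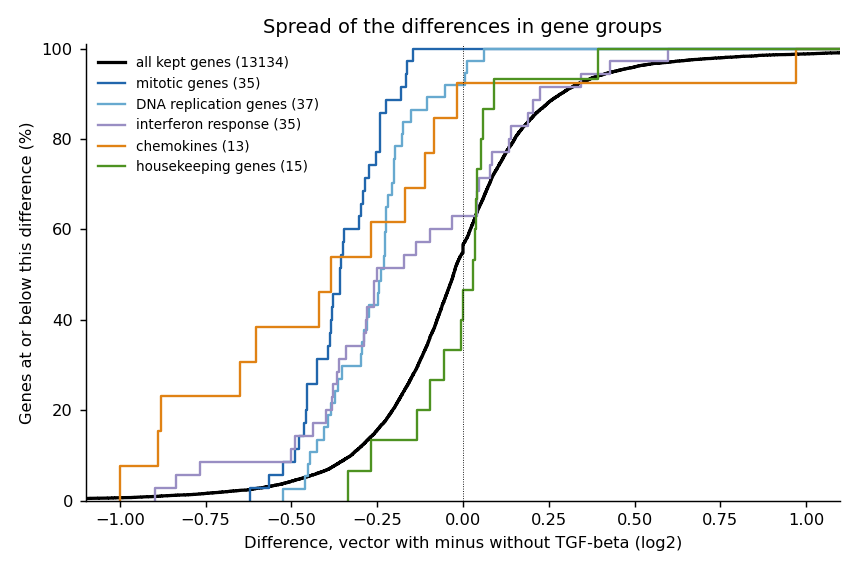
Share of genes (%, vertical) at or below each log2 difference with TGF-beta (horizontal) in 5 gene lists and in all kept genes. The line of the 35 mitotic genes has reached the top before 0, whereas the line of all kept genes crosses 0 at little over the middle.

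Transcription factors past 2-fold came from several families. SOX5, with 0.61 and 3.11, and SOX4, with 6.84 and 25.16, rose among 9 kept SOX genes. The 5 kept probe sets of SOX4 did not share 1 size, as the other 4 differed by between 0.31 and 2.08. KLF7 went from 0.66 to 1.92, the 1 of 15 KLF genes past 2-fold. The nuclear receptors had 2 of 24 genes lower, THRB and the mineralocorticoid receptor NR3C2, which went from 8.83 to 3.62. For THRB another kept probe set gave -1.94 and a further one -0.13.

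Lists of metabolism and stress held no gene past 2-fold. The median was 0.00 over 20 genes of cholesterol and fatty acid synthesis, 0.01 over 28 of glycolysis and hypoxia, 0.14 over 24 of the unfolded protein and amino acid response and -0.04 over 14 heat shock genes. The 35 interferon response genes had a median of -0.25 and the 14 NF-kappaB subunits and feedback genes one of -0.06. GBP1, an interferon-induced GTPase, read 4.34 and 2.33. PTX3 was the 1 gene past 2-fold among 13 of complement and the pentraxins, and none of 14 prostaglandin genes passed.

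On none of the 56 gene lists were 108 of the genes that rose and 71 of those that fell, and the ones given here were chosen after their values were seen. HMOX1, which degrades haem, rose from 3.29 to 13.74, and SPHK1, a sphingosine kinase, from 3.04 to 10.08. MYO10, a myosin of filopodia, went from 18.15 to 49.71 and PODXL, a sialomucin of the cell surface, from 21.32 to 58.96. MYO10 and PODXL were among the brighter genes that rose. VGLL3, a cofactor of TEAD factors, read 2.15 and 9.1, and HHIP, an inhibitor of hedgehog ligands, 1.17 and 4.61. CTHRC1, a secreted protein with a collagen repeat, went from 0.45 to 1.81, and the cholesterol exporter ABCA1 from 3.0 to 9.71. SCG5, a chaperone of secretory granules, read 3.2 and 14.95 and HECW2, a ubiquitin ligase, 2.1 and 9.17.

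The genes outside the lists that fell included ATP1B1, a subunit of the sodium pump and the brightest of all 90, at 98.67 and 48.89. ADORA2B, an adenosine receptor, fell from 26.72 to 11.36, and KYNU, an enzyme of tryptophan breakdown, from 14.37 to 7.09. SOCS2 and SOCS3, inhibitors of cytokine signalling, read 14.47 and 6.31 and 4.74 and 2.27. For SOCS3 the other 2 kept probe sets differed by -0.11 and -0.13. CITED2, a coactivator binding partner, fell from 15.57 to 7.25 and KITLG, the ligand of the KIT receptor, from 4.81 to 2.12. PPARGC1A, a coactivator of mitochondrial genes, read 1.31 and 0.61, RELN, the gene of reelin, 2.76 and 1.07, and the giant cadherin FAT4 3.37 and 1.42.

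Some genes past 2-fold were neighbours on a chromosome. Of 8296 neighbouring pairs with both genes kept, 13 had both members past 2-fold in the same direction, 7 of them higher and 6 lower, holding 25 genes in all. COL4A1 and COL4A2 are transcribed away from each other from a shared stretch on chromosome 13, and so are COL4A3 and COL4A4 on chromosome 2. FERMT1 lay beside BMP2 on chromosome 20 and COL7A1 beside UCN2, a peptide hormone gene that read 1.0 and 2.9, on chromosome 3. CALD1 lay beside BPGM, an enzyme of red cell glycolysis, which read 1.8 and 7.19. TSPAN8 lay beside LGR5, a stem cell receptor that was dim at 0.4 and 0.14. MAL2, CCN3 and ENPP2, the gene of autotaxin, followed each other on 1 chromosome, ENPP2 reading 1.3 and 0.51.

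The stretch between the starts of COL4A1 and COL4A2 is shown because both genes rose from it, by 3.08 and 2.33 on the log2 scale. It is 126 bases long, is 80.2% G and C and is the sequence of RefSeq on build GRCh38.p14, chr13:110307158-110307283, on the plus strand. Capitals mark its 1 CCAAT letters, and none of the motifs searched below was found in it.
COL4A1-COL4A2: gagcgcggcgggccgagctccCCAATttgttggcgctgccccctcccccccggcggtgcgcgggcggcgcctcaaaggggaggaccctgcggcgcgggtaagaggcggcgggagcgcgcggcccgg

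Promoter windows of RefSeq on GRCh38.p14, from 250 bases before to 50 after a gene's start, were searched on both strands for letters bound by factors of the pathway and its partners. A window was used only where the gene has exactly 1, which left 81 of the 157 genes that rose, 42 of the 90 that fell, 7537 of the kept genes and 22114 of all genes. The CAGA box of SMAD3 and SMAD4, CAGACA, was in 24.7% of the windows of genes that rose, in 14.3% of those that fell, in 12.0% of kept and in 17.1% of all windows. The AP-1 letters TGANTCA were in 11.1%, 2.38%, 4.44% and 8.05% of them in the same order. The TEAD letters GGAATG were in 11.1%, 21.4%, 11.0% and 14.4%, and the E-box CACCTG in 21%, 9.52%, 18.3% and 20.8%. The cyclic AMP element TGACGTCA was in 6.17%, 2.38%, 3.52% and 2.01%, the CArG box of SRF in 1.23%, 2.38%, 0.92% and 1.26%, and the SMAD palindrome GTCTAGAC in 0 of the 81 and 0 of the 42. The median G and C content was 68.7% in the genes that rose, 64.5% in those that fell and 65.3% in the kept genes. The members were picked on their differences, and the shares are descriptions without a test.

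Of the 20 genes with the largest rise 13 have a single window, and 5 of these hold a CAGA box. The 60 bases around it are shown for 4 of the genes as examples, 5′ to 3′ on the strand of the gene. Capitals mark TGTCTG, which is the CAGA box read on the other strand. The windows lie at chr4:75555895-75555954 for ODAPH, chr18:66604229-66604288 for CDH19, chr4:70050188-70050247 for HTN1 and chr3:48595395-48595454 for COL7A1, with CDH19 and COL7A1 on the minus strand. The box begins 144 bases before the start of ODAPH, 171 before that of CDH19, 249 before that of HTN1 and 98 before that of COL7A1. In HTN1 it overlaps an AP-1 match. A match of so few letters is common, as the shares above show.
ODAPH: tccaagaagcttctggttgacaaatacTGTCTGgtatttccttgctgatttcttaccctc
CDH19: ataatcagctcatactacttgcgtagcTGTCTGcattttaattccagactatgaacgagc
HTN1: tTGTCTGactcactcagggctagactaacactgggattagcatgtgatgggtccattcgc
COL7A1: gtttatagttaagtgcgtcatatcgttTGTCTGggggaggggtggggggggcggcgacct

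Several probe sets measured many of the genes, which gives a check within the same arrays. Of the 157 genes that rose 78 had another kept probe set, and for 53 of them at least 1 of these also passed 2-fold upward, for 38 all of them did, and for 7 at least 1 had the opposite sign. Of the 90 genes that fell the same numbers were 34, 19, 13 and 3. Sets of a gene parted by more than 1 on the log2 scale for 18 genes that rose and 9 that fell. For PMEPA1 the other sets gave 3.29 and 4.26, for COL4A1 2.84, and for FERMT1 3.04 and 2.63. ADAM19 stood on 1 of its sets, the other one giving 0.20. For SPRY1 the second set gave -1.15, and for CAVIN2 it gave -0.82, under 2-fold.

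The same difference in the arrays labelled DLC1, which share no array with the vector pair, is set beside these values. In the DLC1 pair 102 genes rose, 0.777% of those tested, and 14 fell, 0.107%, or 116 genes and 0.883% in all. Of these 80 rose and 8 fell in both pairs, and no gene passed 2-fold in opposite directions. The 80 are 51.0% of the genes that rose in vector cells and 78.4% of those in the DLC1 pair, and the 8 are 8.89% and 57.1%. In the DLC1 pair 52.1% of all kept genes had a difference below 0. Of the 157 genes 156 had a difference above 0 there, with a median of 1.0. Of the 90 genes 86 had one below 0, with a median of -0.63. The members were chosen on the vector arrays, which by itself favours values nearer to 0 in the other pair, and the difference between the pairs was not tested. The transcript of DLC1 does not settle the labels, as 1 of its kept probe sets read 1.77 in Vector, 2.51 in Vector_TGFb, 3.38 in DLC1 and 3.64 in DLC1_TGFb. The other 2 sets of DLC1 were lower in the arrays labelled DLC1, at 1.79, 2.41, 1.44 and 1.69 and at 0.26, 0.41, 0.18 and 0.19 in the same order.

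Several of the leading genes had like differences in both pairs, though not always like levels. PMEPA1 read 6.63 and 80.96 in the DLC1 pair, a log2 difference of 3.61. COL4A1 read 2.29 and 22.73 there, a difference of 3.31. CDH19 read 0.33, under the filter, and 4.04, a difference of 3.61. Others were far apart. SULT1B1, a sulfotransferase, read 0.23 and 1.04 in the vector pair but 0.17 and 0.21 in the DLC1 pair. SPRY1 read 4.26 and 2.28 in the DLC1 pair, and EREG 0.42 and 0.25. NDP, the gene of norrin, read 1.14 and 0.37 in the vector pair and 0.22 and 0.24 in the DLC1 pair, so it was already under the filter there without TGF-beta. THBS1 read 15.16 and 34.97 in the DLC1 pair in its brightest probe set, which differed by 0.31 in the vector pair, but its other 6 kept sets were past 2-fold in the vector pair too, so the gap between the pairs rests on 1 set. The mitotic genes had a median of -0.14 in the DLC1 pair, with 34 of 35 below 0. The replication genes had one of -0.32, with 35 of 37 below 0, beside 52.1% of all kept genes in that pair.

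**Figure D5:**
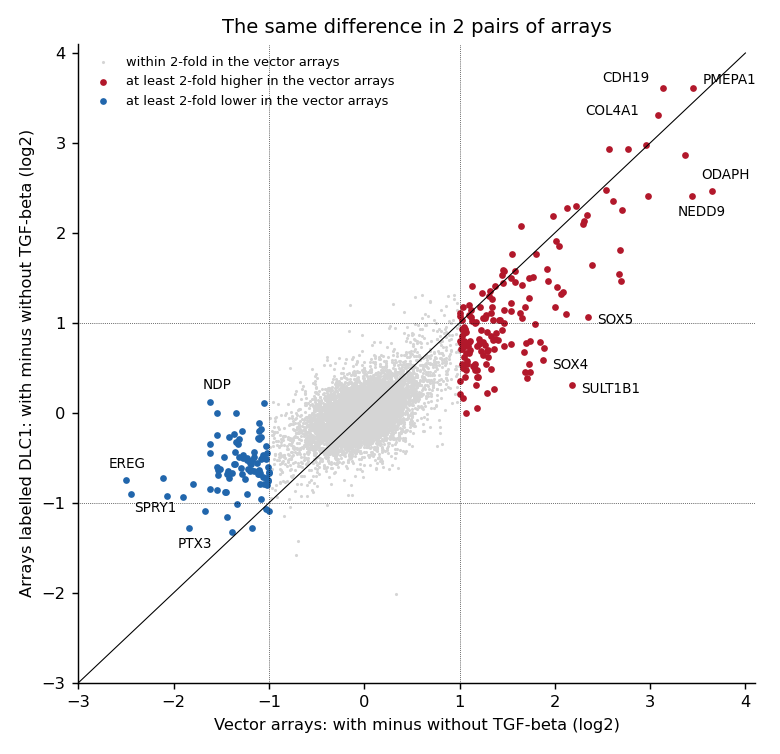
Log2 difference with TGF-beta in the vector arrays (horizontal) and in the arrays labelled DLC1 (vertical) for every kept gene, coloured where it passed 2-fold in the vector arrays. The solid line marks equal differences and the dotted lines 2-fold; PMEPA1 lies above the solid line, and most coloured points lie nearer to 0 on the vertical axis, where SULT1B1 is at 0.30 and NDP at 0.13.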

How the data were processed

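Messenger RNA of SCP2 cells was measured on 1 array for each of 4 groups, taken from their labels. Cultures were trypsinised, and their RNA was taken up in Trizol, copied from oligo-dT primers and labelled with biotin, per the labels' protocols. The deposited values are linear intensities with 2 decimals for 54675 probe sets. RMA is named per the submitters' processing notes, and the scale's divisor is not given in the sources used here. RMA equalises the arrays, which hides a shift common to most genes, and rounding makes ratios of dim values coarse.

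Names came from the platform annotation, in which 41097 have exactly 1 symbol, 1801 have several and 11777 are not listed. A gene's value is that of its probe set with the highest mean log2 over the 4 arrays. Of 19775 genes, 13134 whose highest value reached 0.38 were kept. Differences are of log2 values, and a change is at least 2-fold. The number of arrays limits the precision. The genes named were drawn from the 20 highest and 20 lowest after dim values were raised to 0.38, listed genes past 2-fold, the 3 largest differences of lists with fewer, the members of the signalling lists, neighbouring pairs, genes whose probe sets part, and those with the largest gaps to the arrays labelled DLC1. Further genes, among them VIM, ZEB1, MMP1, THBS1 and COL4A5, were chosen after their values were seen. The members, the 56 gene lists and the rules were chosen with earlier results of these data known. The result of 1 list is not reported here. The counting of changed genes was tested on simulated data, with changes past 2-fold planted in brighter genes only. That test therefore does not bear on dim genes or on changes near 2-fold. Other filters, offsets, probe set rules, normalizations and sizes were tried. Python 3.11.15, numpy 2.4.6, pandas 2.3.3, and limma 3.58.1 in R 4.3.3 were used.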

Additional observations from a re-analysis of the deposited data

Results flagged for a closer look

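Genes that fell by 2-fold in the vector arrays while having a small difference above 0 in the DLC1 pair were NDP, with a log2 difference of -1.62 against 0.13, and GSAP, the gene of a gamma-secretase activating protein, with -1.05 against 0.11. The difference between the pairs of arrays was not tested.

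Signal was also present in probe sets that the annotation does not list. Of the 3671 of these that were bright enough to be kept, 40 were at least 2-fold higher and 13 at least 2-fold lower with TGF-beta in the vector arrays. Their genes are not named here.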

How the results depend on the processing

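Over 12 alternatives of filter, dim values, probe set and normalization, the count of genes higher with TGF-beta in vector cells lay between 118 and 161. The count of genes lower with TGF-beta in vector cells was 58 with the filter at the 75th percentile, 55 with 0.25 added before log2 and 54 with the mean of all probe sets of a gene, against 90, and between 70 and 93 otherwise. For genes lower in both backgrounds, vector and DLC1, the count was 4 with the added 0.25. At 1.5-fold 410 genes rose and 381 fell, and at 3-fold 55 and 12. The genes higher in both backgrounds were then 221 and 26, and those lower in both 91 and 0. Of 123 named genes past 2-fold, 83 kept their call under each of the 12 alternatives that gave a value for them. Raising dim values to the filter level or adding 0.25 ended the calls of COL4A3, COL4A4, FAP, INHBB, IL1RN, KRT14, LGR5, GZMK and GIMAP2. Adding 0.25 also ended those of ANGPT1, CCL20, CEBPD, CLDN14, GDF15, KYNU, LTBP2, PDGFB, PLXNA2, PPARGC1A, SHISA3, SIM2 and SOCS3. Quantile normalization again ended those of LTBP2 and SIM2, centring on the housekeeping list that of CCL20, and leaving out probe sets that can read several transcripts those of KRT7, PLXNA2 and TNFRSF11B. The mean of all probe sets, which takes in dim sets, ended those of ATP1B1, CALD1, CITED2, CSF1, FCMR, HECW2, IL11, ITGB8, KRT7, LY6K, MBP, MEGF6, RGCC, SKIL, SOCS2, TMCC1, TNFRSF11B and WNT5B, and also of CEBPD, COL4A4, GDF15, PDGFB, PLXNA2 and SOCS3. No named gene past 2-fold took the opposite sign, and the sign of the other named genes was not compared. Of the medians of the lists, 605 values under the alternatives stayed within 0.1 of the one given and 67 did not. The median of the induced targets was 0.74 without a filter, that of the collagen IV chains ran from 0.75 to 2.71, and that of the chemokines from -0.60 to -0.11. No replicate can be left out. No paired analysis was possible because each group is 1 array.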
